A study of Mus musculus with 6 samples.

Results

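Genes that mark non-classical, or patrolling, monocytes of the mouse were followed in liver cells of knockout (KO) and wild-type (WT) animals given carbon tetrachloride (CCl4). The 10 members are Cx3cr1, Treml4, Adgre4, Itgal, Pou2f2, Spn, Cd300e, Eno3, Ace and Nr4a1, out of 23394 genes measured and 15619 tested. They were selected on the normalised counts of these same 6 libraries, by their KO against WT difference, also relative to Ptprc. Their own KO and WT values are therefore a description, and counts of members called on this contrast are no test of them. The animals were C57BL/6 males aged 3 months that received intraperitoneal CCl4, a hepatotoxin that scars the liver on repeated dosing. Hepatic cells bearing F4/80, an antigen of mouse macrophages, were sorted magnetically from digested liver, and polyadenylated RNA was sequenced. Both groups, KO (3 libraries) and WT (3 libraries), had received CCl4, and the labels part them by genotype alone. Neither the targeted gene, the allele nor any Cre driver is named there, so no check of the knockout was made. Nothing in the labels ties a library to an animal of its own, so p-values measure the spread between these libraries, which may be partly technical.

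Blood monocytes of the mouse are divided by the surface antigen Ly6C. Ly6C-high classical monocytes enter injured tissue, while Ly6C-low non-classical monocytes crawl along the vessel wall, hold on through the integrin LFA-1 and the fractalkine receptor CX3CR1, and clear debris from the endothelium. Their development from classical monocytes depends on the orphan nuclear receptor NR4A1. Monocytes carry less F4/80 than the resident Kupffer cells of the liver. None of the 10 genes is confined to these monocytes: Itgal, Spn and Pou2f2 are also lymphocyte genes, Ace is also an endothelial gene, Eno3 is the muscle enolase gene, and Nr4a1 is an immediate-early gene of many cells.

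Every member was read in all 6 libraries, with 453 to 32082 reads per member and library, so counting error is small beside the spread between libraries. The libraries held 10790842 to 22157238 reads with 1 transcript kept per gene. Mitochondrially encoded reads made up 16.2% to 20.0% of the KO libraries and 6.19% to 27.5% of the WT libraries. Markers of other cells were present in both groups. The 10 hepatocyte markers together had 88716 to 159103 normalised counts in KO libraries and 23553 to 72150 in WT libraries, and 6 rose by limma's test (adjusted p under 0.05), beside 2.09% of all genes called higher in KO. The 10 endothelial markers together had 50097 to 102405 in KO and 25644 to 48362 in WT libraries, and 3 rose. EdgeR called 6 of the hepatocyte and 0 of the endothelial markers (limma: 9 endothelial at an unadjusted p under 0.05). The limma calls of Tat, Serpina1a and Hnf4a, the hepatocyte markers of smallest p, were lost without KO replicate 3 and held without any other single library. Those of Emcn, Tie1 and Clec4g, the endothelial calls, were lost without KO replicate 2, KO replicate 3, WT replicate 1 or WT replicate 3. The 10 Kupffer cell markers together had 27319 to 40882 in KO and 27998 to 84807 in WT libraries. The 6 B cell markers summed to 23735 to 52077 in KO and 21934 to 46010 in WT libraries, and 9 markers of T and NK cells to 4090 to 8964 in KO and 3476 to 8274 in WT libraries. None of the markers used was at 0 reads over all 6 libraries. The part of these cells in the results below was not tested. In such bulk RNA, fewer cells of a type and less RNA per cell cannot be told apart.

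Of the 10 members, 9 stood at a lower level in every KO library than in any WT library. In these 9 genes the KO mean was 30.3% to 40.5% of the WT mean, which on the scale of log2(normalised count + 1) is a change of -1.79 to -1.33. The exception was Nr4a1, whose KO and WT values overlapped and whose KO mean was 89.3% of the WT mean. The median log2 change of the 10 members was -1.47, beside 0.05 over all 15619 tested genes. Over all tested genes, 9.25% had every KO value below every WT value, 22.9% had no overlap in either direction, 45.8% had a log2 change below 0 and 4.01% had a log2 change of -1 or lower. The choice of the members used this contrast, so nothing is read from the calls that follow. Limma called 5 members at a Benjamini-Hochberg adjusted p under 0.05, Cx3cr1, Treml4, Adgre4, Itgal and Pou2f2, beside 0.352% of all genes called lower in KO and 2.44% called in either direction. EdgeR's quasi-likelihood test called 3 of them, Cx3cr1, Adgre4 and Pou2f2, beside 1.81% of all genes. Limma's count turned on single libraries. Without KO replicates 1, 2 and 3 it called 9, 1 and 0 members, beside 810, 136 and 8 of all 15619 tested genes. Without WT replicates 1, 2 and 3 it called 2, 1 and 4 members, beside 170, 289 and 173 of all tested genes. Without KO replicate 3 limma called 8 genes in all in place of 381, and the median of the members was -1.20.

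**Figure D1:**
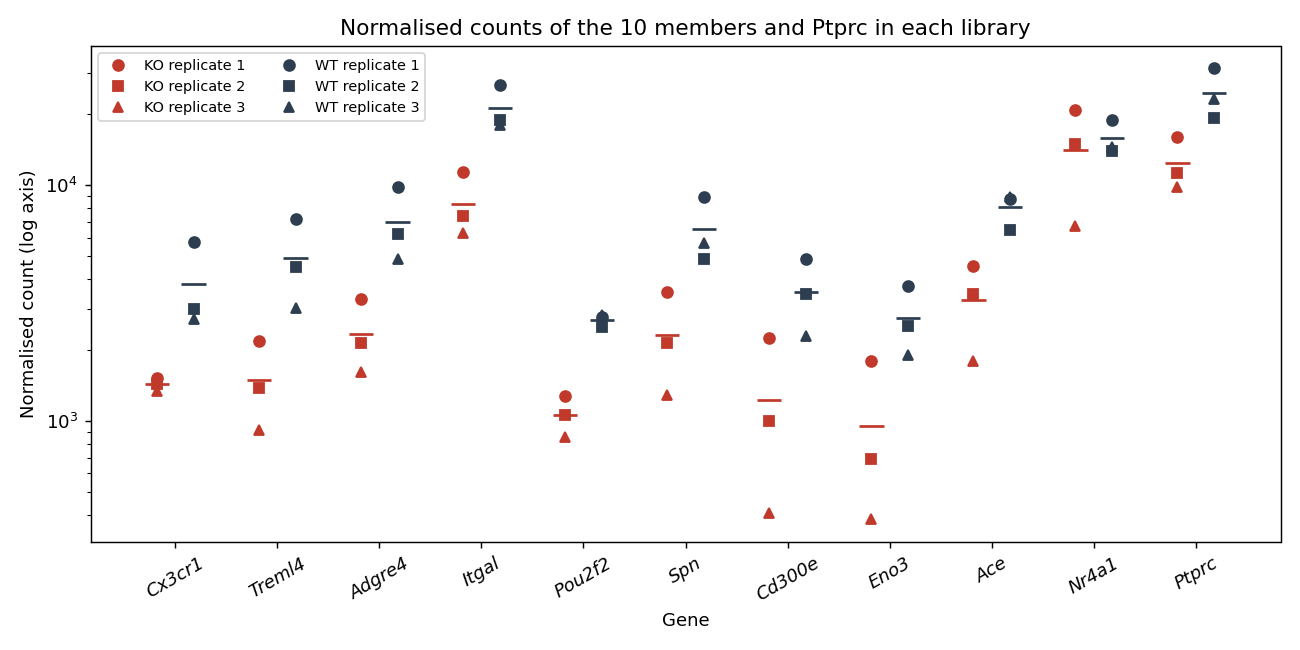
Normalised counts (log axis) of the 10 members and of Ptprc, the pan-leukocyte gene, with KO libraries in red at the left and WT libraries in dark blue at the right of each gene; symbols mark the replicate and horizontal lines the means. For 9 members the highest KO point lies below the lowest WT point, and for Nr4a1 the KO points, 6725 to 20799, span the WT points, 14027 to 18949.

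Promoter sequences are shown for the 3 members whose start regions held a feature that a search could name. RefSeq's table on build GRCm38.p6 gave windows of 300 bases, 250 before to 50 after the start, for 9 of the 10 members, with 2 windows for Ace. A set of 5 motifs was searched on both strands: the NR4A1 element AAAGGTCA, the octamer ATGCAAAT bound by Oct-2 (the Pou2f2 product), the PU.1 element GAGGAAGT, the C/EBP element TTGCNNAA and the KLF element CCACACCC. They occur in 1.51%, 1.74%, 3.20%, 10.8% and 3.56% of all 32851 windows. Among the 10 member windows, only that of Adgre4 held any of them, 1 C/EBP match at -46 from the start and 1 PU.1 match at 41, both on the opposite strand and not overlapping. These letters are in capitals in its window on the plus strand at chr17:55749734-55750033.
Adgre4: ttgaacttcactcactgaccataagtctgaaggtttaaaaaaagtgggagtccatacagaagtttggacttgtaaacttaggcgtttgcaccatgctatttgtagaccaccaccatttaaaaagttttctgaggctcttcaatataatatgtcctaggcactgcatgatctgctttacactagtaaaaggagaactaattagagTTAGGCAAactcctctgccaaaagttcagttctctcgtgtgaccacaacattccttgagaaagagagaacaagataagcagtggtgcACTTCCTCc
The Treml4 window, on the plus strand at chr17:48264045-48264344, holds a run of 40 bases that occurs a second time with no change, at -225 and -134 from the start. Both copies are in capitals. A repeat of this length is found in 0.341% of all windows, and the longest in the other member windows is 10 bases. The length counted was set by the Treml4 repeat itself, so the share only describes this window.
Treml4: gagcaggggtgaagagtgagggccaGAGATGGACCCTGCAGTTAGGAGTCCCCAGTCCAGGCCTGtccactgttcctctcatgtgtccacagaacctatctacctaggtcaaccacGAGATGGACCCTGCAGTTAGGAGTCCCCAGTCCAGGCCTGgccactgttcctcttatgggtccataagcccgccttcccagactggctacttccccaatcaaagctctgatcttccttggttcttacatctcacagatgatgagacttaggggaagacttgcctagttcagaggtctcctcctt
The Nr4a1 window, on the plus strand at chr15:101266596-101266895, has a GC content of 72.3%, against a median of 52.7% over all windows. It holds 4 copies of TGCGTCA, a form of the element bound by CREB and AP-1 factors, at -235, -215, -71 and -42 from the start, shown in capitals. This motif was chosen after the sequence was read. On either strand it occurs in 2.12% of all windows and in no other member window, and the Nr4a1 window alone among the 32851 has 4 or more copies. A match is a description of letters and not evidence of binding.
Nr4a1: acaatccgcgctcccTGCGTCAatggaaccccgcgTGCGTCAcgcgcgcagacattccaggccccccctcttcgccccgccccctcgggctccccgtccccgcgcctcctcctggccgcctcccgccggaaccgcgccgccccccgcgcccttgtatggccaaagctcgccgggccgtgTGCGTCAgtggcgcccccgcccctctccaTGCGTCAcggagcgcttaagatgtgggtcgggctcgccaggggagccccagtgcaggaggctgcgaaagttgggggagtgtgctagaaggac

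The surface receptors come first. Cx3cr1, the receptor for the chemokine fractalkine, maps to chromosome 9 (119901616 to 120069879, minus strand, GRCm38). It had 1518, 1432 and 1344 normalised counts in KO replicates 1, 2 and 3, against 5737, 2988 and 2719 in WT replicates 1, 2 and 3. The KO libraries lay close together while WT replicate 1 stood well above the other WT libraries, and the groups did not overlap. The means were 1431 ± 87.2 in KO and 3815 ± 1670 in WT libraries (SD, n = 3 each), a log2 change of -1.33 (SE 0.27). The other annotated transcript of Cx3cr1, of 3156 bases, was at -1.37.

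Treml4, a receptor of the TREM family on mouse myeloid cells that sensitises them to TLR7 ligands, lies on chromosome 17 at 48264295 to 48275360. It had 2180, 1379 and 912 normalised counts in the KO libraries, against 7220, 4492 and 3027 in the WT libraries, in replicate order. Both groups spread widely, and the highest KO value was still below the lowest WT value. The log2 change was -1.72 (SE 0.37).

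Adgre4, an adhesion-type receptor related to F4/80 itself, lies on the same chromosome at 55749984 to 55853662. It had 3287, 2149 and 1609 in KO libraries, against 9814, 6239 and 4890 in WT libraries, a log2 change of -1.57 (SE 0.32). Its profile over the 6 libraries was closer to that of Treml4 than any other pair of members. After each gene was centred on its own mean, they differed by a root mean square of 0.13 on the log2 scale.

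Cd300e, an activating receptor of myeloid cells, lies on chromosome 11 at 115051917 to 115062177. It had 2259, 1000 and 409 normalised counts in KO libraries, against 4849, 3453 and 2293 in WT libraries. KO replicate 1 lay just under WT replicate 3, so the groups parted only narrowly. The log2 change of -1.79 (SE 0.53) was the lowest of the 10 members and also the least precise.

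Of the adhesion molecules, Itgal encodes the alpha chain of LFA-1, the integrin with which patrolling monocytes crawl on endothelium. It lies on chromosome 7 at 127296260 to 127335138. It had 11416, 7412 and 6248 normalised counts in KO libraries, against 26597, 18966 and 18014 in WT libraries. The groups were well apart, with a log2 change of -1.37 (SE 0.29). Its partner chain Itgb2, which LFA-1 shares with other leukocyte integrins, had 15591, 11746 and 18371 in KO libraries and 22393, 19543 and 15589 in WT libraries, with overlap. The log2 difference of Itgb2 was -0.34, with a limma adjusted p of 0.586.

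Spn encodes the sialoglycoprotein CD43, whose high level sets non-classical from classical monocytes in the mouse, and maps to chromosome 7 (127132232 to 127137823, minus strand). It had 3523, 2151 and 1294 in KO libraries, against 8956, 4886 and 5669 in WT libraries. The groups did not overlap, and the log2 change was -1.55 (SE 0.36).

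Pou2f2 encodes the transcription factor Oct-2 and maps to chromosome 7 (25087344 to 25179726, minus strand). It had 1280, 1058 and 856 normalised counts in KO libraries, against 2761, 2500 and 2815 in WT libraries. It was the steadiest member in the WT libraries, where its log2 values had an SD of 0.09, and its log2 change of -1.36 had the smallest SE, 0.19. A shorter Pou2f2 transcript of 2340 bases took 17.0%, 26.2% and 32.7% of the reads of the kept long transcript in KO libraries, and 15.4%, 27.3% and 30.5% in WT libraries. These shares differed between libraries and overlapped between genotypes. The transcripts share exons, so such shares are not proportions of molecules.

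Nr4a1, on chromosome 15 at 101254269 to 101274795, had 20799, 14965 and 6725 normalised counts in KO libraries, against 18949, 14027 and 14589 in WT libraries. KO replicate 1 was the highest of the 6 libraries and KO replicate 3 the lowest. The log2 change was -0.30 (SE 0.39). Without KO replicate 3 it was 0.17, on the other side of 0. Per kilobase of transcript Nr4a1 was the most abundant member in both groups, at 5718 ± 2855 in KO and 6401 ± 1088 in WT libraries (SD, n = 3 each).

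Immediate-early genes, a class induced within minutes by stress or by handling, to which Nr4a1 belongs, showed the same lack of separation. Of 12 listed besides Nr4a1, 11 had a log2 change above 0, with a median of 0.32, and all 12 overlapped between the groups. Limma and edgeR called 0 of them, with 0 at an unadjusted p under 0.05. Egr2, Junb and Jun, those of smallest p, had log2 changes of 0.54, 1.13 and 0.57. Together the 12 genes had 218208, 208662 and 119553 normalised counts in KO libraries, so KO replicate 3 was lowest here as for Nr4a1, and 124616, 147740 and 154758 in WT libraries.

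Ace encodes angiotensin-converting enzyme and lies on chromosome 11 at 105967945 to 105989964. It had 4536, 3464 and 1801 normalised counts in KO libraries, against 8783, 6486 and 8909 in WT libraries, a log2 change of -1.39 (SE 0.32). A shorter Ace transcript of 2418 bases ran at 63.0%, 56.7% and 56.1% of the kept transcript in KO libraries and 57.2%, 57.1% and 58.1% in WT libraries. Endothelium also makes this enzyme, and the part of endothelial RNA in the Ace values was not tested.

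Eno3 encodes the beta subunit of enolase, a glycolytic enzyme best known from muscle. It lies on chromosome 11 at 70657202 to 70662513. It had 1791, 692 and 383 normalised counts in KO libraries, against 3748, 2521 and 1909 in WT libraries, a log2 change of -1.75 (SE 0.49). As for Cd300e, KO replicate 1 came close to the lowest WT library. The profiles of these 2 genes over the 6 libraries differed by a root mean square of 0.14, the second closest pair of members.

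The members can be ordered by level per kilobase of the kept transcript. In WT libraries the means ran from Nr4a1 at 6401, Itgal at 4079 ± 906, Treml4 at 2817 ± 1220 and Adgre4 at 2000 ± 729 to Cx3cr1 at 1017 ± 445 and Pou2f2 at 379 ± 23.8 normalised counts per kilobase. Eno3, Spn, Cd300e and Ace lay between Adgre4 and Cx3cr1, at 1743, 1737, 1691 and 1643, and were not apart beyond their SDs of 278 to 613. In KO libraries Nr4a1 and Itgal were again first and second, at 5718 and 1609 ± 522, while Cx3cr1, at 381 ± 23.2, and Pou2f2, at 150 ± 29.9, came last. The 6 others had KO means of 585 to 854 with SDs of 245 to 473, so their order was not resolved.

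Across the 40 annotated transcripts of the members, 39 belong to genes other than Nr4a1. Their log2 changes ran from -1.81 to -1.04, and short transcripts of 363 and 427 bases of Eno3 and 455 bases of Pou2f2 overlapped between groups. Transcripts of a gene share reads, and the genes were chosen for this difference, so these values add nothing independent.

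Libraries of one genotype differed from each other in the same way for most members. All 10 members were lowest in KO replicate 3 and highest among the KO libraries in KO replicate 1. Apart from Nr4a1, the members stood at a median of 53.9% of their WT mean in KO replicate 1, 33.1% in KO replicate 2 and 22.4% in KO replicate 3. In WT replicates 1, 2 and 3 the medians were 137%, 89.5% and 71.3%. Other lists also differed among the KO libraries. The 10 hepatocyte markers summed to 88716, 115304 and 159103 normalised counts in KO replicates 1, 2 and 3, the 7 pan-leukocyte genes to 97990, 64334 and 64035, the B cell markers to 52077, 35357 and 23735 and 5 erythroid genes to 201393, 78276 and 23674. The hepatocyte sum was thus lowest, and those of the other 3 lists highest, in the KO library with the most signal from the members. Most of the hepatocyte sum was Alb, at 64234, 88350 and 115981 in KO replicates 1, 2 and 3. Alb, Apoa1, Ttr, Serpina1a and Cyp3a11 were lowest in KO replicate 1. The other hepatocyte markers were not. Tat and Ass1 were highest there, and Hnf4a, Cyp2e1 and Cps1 were lowest in KO replicate 2. The part of these differences in the members' values was not tested.

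The members were next set against Ptprc, which encodes the pan-leukocyte antigen CD45, to ask how much of the lower level was shared with leukocyte RNA at large. Ptprc had 16098, 11273 and 9848 normalised counts in KO libraries, against 31336, 19289 and 23212 in WT libraries, without overlap. Its log2 change was -0.99 (SE 0.30). Limma did not call Ptprc (adjusted p = 0.116), whereas DESeq2 did (adjusted p = 0.00192). Relative to Ptprc in the same library, 9 of 10 members were still lower in KO, beside 4.07% of all genes, and the median over all tested genes was 1.04 on this scale. The sizes were much smaller, from -0.80 for Cd300e to -0.34 for Cx3cr1, with a median of -0.48 over the 10 members. Adgre4, Itgal and Spn kept every KO value below every WT value, beside 0.224% of all genes. With every gene so scaled limma called 53.5% of all genes, nearly all of them higher in KO. The choice of the members used this scale too, so the counts are a description.

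For Itgal the log2 ratio to Ptprc was -0.50, -0.60 and -0.66 in KO replicates 1, 2 and 3, against -0.24, -0.02 and -0.37 in WT replicates 1, 2 and 3. For Adgre4 it was -2.29, -2.39 and -2.61 in KO libraries, against -1.67, -1.63 and -2.25 in WT libraries. For Cx3cr1 it was -3.41, -2.98 and -2.87 in KO libraries, against -2.45, -2.69 and -3.09 in WT libraries, and the groups overlapped. The ratio of Nr4a1 was higher in KO, at 0.08 ± 0.54, than in WT, at -0.62 ± 0.14 (SD, n = 3 each), also with overlap.

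The size of this residual depended on the leukocyte gene chosen. Ptprc had the lowest log2 change of 7 pan-leukocyte genes, all of which were below 0, with a median of -0.46. Lcp1, which encodes the actin-bundling protein L-plastin, was at -0.71 (limma adjusted p = 0.217), Rac2, a GTPase of blood cells, at -0.48 (limma adjusted p = 0.390) and Cd53, a leukocyte tetraspanin, at -0.25. Limma and edgeR called 0 of the 7, with 2 at an unadjusted p under 0.05. DESeq2 called Ptprc and Lcp1 (adjusted p = 0.00192 and 0.0149) but not Rac2 or Cd53 (adjusted p = 0.301 and 0.572). Relative to the mean of these 7 genes, a reference added after the data were seen, the median of the members was -0.95, and over all tested genes it was 0.57. With single genes as the reference the members' median ran from -1.22 for Cd53 to -0.48 for Ptprc. On the scale of the 7 genes, 9 members were below 0 and 8 had every KO value below every WT value, beside 11.5% and 1.09% of all genes. Cd300e and Nr4a1 overlapped.

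**Figure D2:**
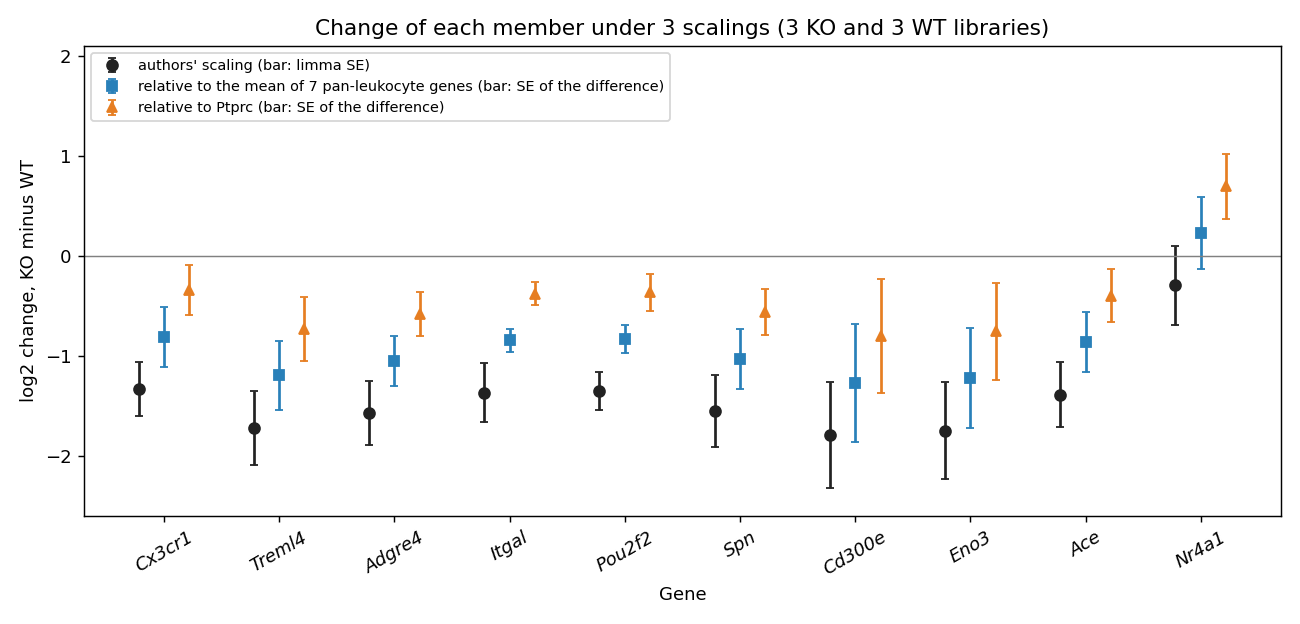
Log2 change, KO minus WT, of each member on the authors' scaling (black circles, limma SE), relative to the mean of 7 pan-leukocyte genes (blue squares) and relative to Ptprc (orange triangles), with bars of 1 SE from 3 KO and 3 WT libraries. The 9 members other than Nr4a1 lie below 0 on each scale, nearest to 0 relative to Ptprc, while Nr4a1 lies at -0.30, 0.23 and 0.69.

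Of 15 further genes known from Ly6C-low monocytes of the mouse, 12 had a log2 change below 0, with a median of -0.85, and relative to Ptprc 2 did, with a median of 0.14. Of the 15 genes, 5 had every KO value below every WT value, beside 9.25% of all tested genes. The difference from the members, which were chosen for their change, was not tested. Fcgr4, the activating Fc receptor carried by these monocytes, fell in KO, with 758, 860 and 658 normalised counts against 1239, 1474 and 1303 in WT libraries (log2 change -0.82, SE 0.18, limma adjusted p = 0.047). It was the only one limma called, and relative to Ptprc its log2 change was 0.17 (limma adjusted p = 0.673). With 1 library left out its limma adjusted p was 0.0486 to 0.189, and the call was lost without KO replicate 2 or 3 or any of the WT replicates. Lair1, an inhibitory collagen receptor, and Tnfrsf1b, a TNF receptor, were at -0.99 and -0.92 (limma adjusted p = 0.0560 and 0.0637). EdgeR's test called Lair1 (adjusted p = 0.0491) besides Fcgr4.

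Ligands and partner chains were mixed in direction. Cx3cl1, the fractalkine ligand of CX3CR1, was low in both groups, with 43.2, 57.2 and 36.4 normalised counts in KO libraries and 20.6, 6.30 and 42.1 in WT libraries. Icam2, an endothelial ligand of LFA-1, had 1485, 1723 and 1487 in KO libraries, against 740, 1105 and 943 in WT libraries, without overlap (log2 change 0.77, limma adjusted p = 0.0715). Icam1, the other main ligand, was at -0.47 (limma adjusted p = 0.366). Fcer1g, the signalling chain of activating Fc receptors, had 5968, 4123 and 4195 in KO and 10280, 7594 and 6166 in WT libraries (log2 change -0.74, limma adjusted p = 0.154). Of these 6 genes limma and edgeR called 0, with 2 at an unadjusted p under 0.05. DESeq2 called Icam2 and Fcer1g (adjusted p = 0.0293 and 0.0218) but not Icam1 (adjusted p = 0.194).

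Regulators of monocyte fate were not called by limma or edgeR either. Of 13 tested, 8 were below 0, the median log2 change was -0.12 and limma and edgeR called 0, with 6 at an unadjusted p under 0.05. Those of smallest p were Tcf7l2, a Wnt pathway factor, at -0.99, Notch2, a receptor that promotes conversion to Ly6C-low monocytes in the mouse, at -0.75, and Csf1r, the CSF1 receptor on which these cells depend, at -0.92 (limma adjusted p = 0.0584, 0.0882 and 0.127). DESeq2, which called 1409 genes in all, called these 3 (adjusted p = 0.0021, 0.00328 and 0.000392). All 3 had every KO value below every WT value. In the whole list 5 of the 13 did, beside 9.25% of all tested genes. The members' fellow orphan receptors Nr4a2 and Nr4a3, at 0.09 and -0.25, overlapped between groups, as did Nr4a1.

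Classical monocyte and Kupffer cell genes served for comparison, with values only and no test of the difference between lists. Among 11 classical monocyte genes the median log2 change was -0.45, with 9 below 0. Only Ccr2 had every KO value below every WT value, beside 9.25% of all tested genes. In the other direction, 2 genes, Mgst1 among them, had every KO value above every WT value. Limma and edgeR called 0 of the 11 (4 at an unadjusted p under 0.05). Mgst1, Plac8 and Ccr2, those of smallest p, were at 0.87, -1.03 and -0.61. Among 10 Kupffer cell genes the median was -0.05, with 6 below 0, and again 0 were called by either tool (2 at an unadjusted p under 0.05). Clec4f, Marco and Timd4 were at 1.12, -1.63 and -0.64 (limma adjusted p = 0.0537, 0.102 and 0.392). Of the Kupffer cell genes, 1 (Clec4f) had every KO value above every WT value and 1 (Marco) every KO value below. No overlap in either direction was found in 22.9% of all tested genes. DESeq2 called Clec4f and Marco (adjusted p = 0.00152 and 0.000393) but not Timd4 (adjusted p = 0.183). Relative to Ptprc the medians of the classical and Kupffer lists were 0.54 and 0.94, beside -0.48 for the members.

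Lymphocytes also express Itgal, Spn and Pou2f2, and their part in the values of these genes was not tested. The 6 B cell markers had a median log2 change of 0.05 and the 9 markers of T and NK cells one of 0.18, and none of the 15 was called by limma or edgeR or had an unadjusted p under 0.05. The B cell markers of smallest p, Cd79a, Ighm and Ms4a1, were at 0.26, 0.26 and -0.16. Trbc2, Cd3g and Nkg7 of T and NK cells were at 0.41, 0.32 and 0.23. Of 7 neutrophil markers 6 were below 0, with a median of -0.13, and Retnlg was at -1.17 (limma adjusted p = 0.0653). The 10 endothelial markers had a median of 1.29. Conventional and plasmacytoid dendritic cell markers had medians of -0.28 and -0.01, with genes on both sides of 0. Zbtb46, Flt3 and Cd209a of the conventional list were at 1.30, -0.97 and -0.41. Bst2, Ccr9 and Siglech of the plasmacytoid list were at 0.87, -0.55 and -0.50. In these lists only Zbtb46 and Bst2 had no overlap, both higher in KO. DESeq2 called Zbtb46 (adjusted p = 0.00788) but not Bst2 (adjusted p = 0.124). Limma and edgeR called 0 genes of the neutrophil and both dendritic cell lists, with 1, 2 and 1 at an unadjusted p under 0.05. The 8 stellate cell markers had a median of 0.64, and Col1a1, the collagen gene of scar-forming cells, rose by 1.22 on the log2 scale by limma's test (adjusted p = 0.0401), a call that edgeR did not make and that limma lost on leaving out any single library other than KO replicate 1. The hepatocyte and erythroid lists had medians of 2.24 and 3.05, and limma and edgeR called 0 of the 5 erythroid genes tested (4 at an unadjusted p under 0.05).

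**Figure D3:**
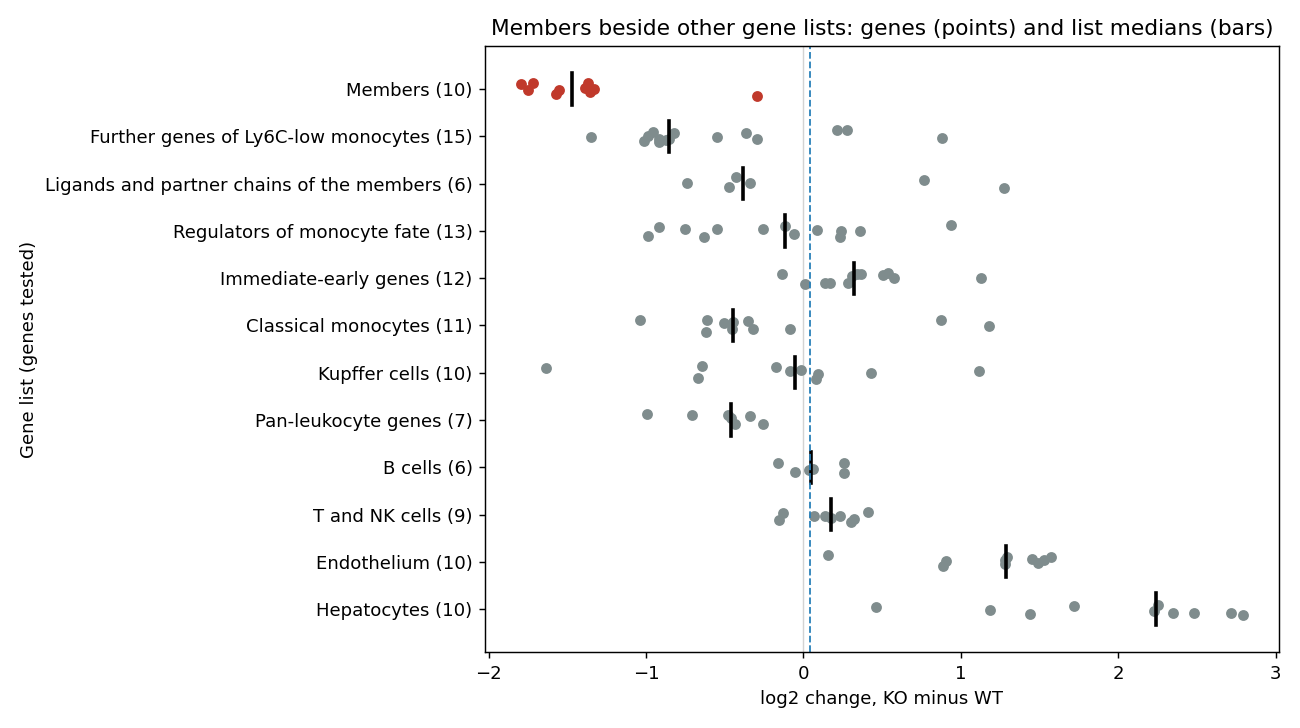
Log2 change, KO minus WT, of the genes (points) of the member list (red) and of 11 companion and marker lists (grey), with black bars at the list medians, a dashed line at the median of all tested genes and the number of genes tested in brackets. The member median lies at -1.47 and that of the further Ly6C-low genes at -0.85, while B cell, endothelial and hepatocyte lists lie at 0.05, 1.29 and 2.24.

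Some genes outside the list followed single members closely over the 6 libraries. Closeness was the root mean square difference of the log2 values, each gene centred on its own mean, over the 15619 tested genes without the members and predicted genes. Nearest to Cx3cr1 were Pstpip2, Havcr2 and Plagl2, at 0.12, 0.14 and 0.14. Pstpip2, an adaptor of the myeloid cytoskeleton, had 164, 162 and 168 normalised counts in KO libraries, against 547, 340 and 291 in WT libraries. It shared with Cx3cr1 the narrow KO range and the high WT replicate 1.

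Nearest to Treml4 were Ms4a6c, Pdcd1lg2 and Fpr2, at 0.13, 0.16 and 0.16. Ms4a6c, a membrane protein gene of myeloid cells, had 2506, 1482 and 874 normalised counts in KO libraries, against 7019, 4131 and 2704 in WT libraries. Nearest to Itgal were Samsn1, Slc12a2 and Itga4, at 0.11, 0.11 and 0.12. Itga4, the alpha chain of the integrin VLA-4, had 6734, 3542 and 3065 in KO libraries, against 15242, 9692 and 10500 in WT libraries. With 6 libraries and many genes, only the likeness of values is stated.

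**Figure D4:**
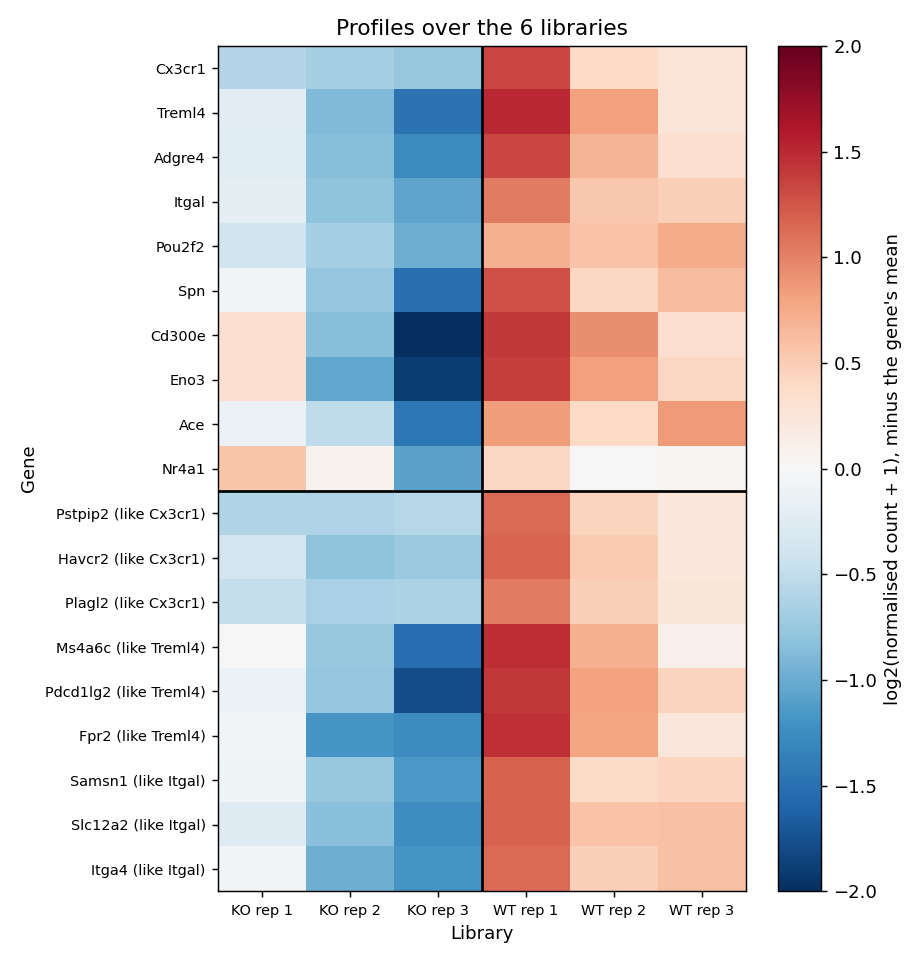
Log2(normalised count + 1) of each gene minus its mean over the 6 libraries (colour, blue below and red above the mean), with KO libraries at the left and WT libraries at the right, for the 10 members above the line and the 9 genes of closest profile below it. The 9 members other than Nr4a1 are blue in KO replicates 2 and 3 and red in the WT libraries, whereas Nr4a1 lies far below its mean only in KO replicate 3.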

How the data were processed

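For each library the deposited table lists 79382 Ensembl transcripts, with a signal that the file headers name normalised counts. The values are whole reads times 1 constant per library, which the authors applied before deposit: 100% were whole multiples of the value of 1 read within 0.001. The submitters' processing notes name, with no roles, STAR 2.4.0k, HTSeq 0.5.3, DESeq 1.8.3, bcl2fastq 2.17, SAMtools and the build GRCm38.p4. Annotation release, strand setting and handling of multiply matched reads: not given in the sources used here. GENCODE M21 (GRCm38) matched 78332 transcripts to 23394 genes, and the transcript of highest mean over the 6 libraries stood for each gene. Kept transcripts overlapped other genes by 35 bases for Pou2f2 (same strand) and 295 for Ace (opposite strand).

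Limma 3.58.1 (R 4.3.3, trended prior) was fitted to log2(value + 1) with genotype as its term, over 15619 genes passing filterByExpr on the recovered reads. P-values were two-sided and Benjamini-Hochberg adjusted, and a call is an adjusted p under 0.05. Fold changes of low genes are understated on this scale. EdgeR 4.0.16, on reads that came out whole for 100% of transcripts, called 282 genes, and limma 381. The limma step was tested on simulated data, with 50 genes changed at each size. It recovered 14% of log2 changes of 1, 66% of 2, 88% of 3 and 96% of 4. It called 7 of 15419 unchanged genes. So a gene that was not called is not shown to be unchanged. DESeq2 1.42.0, among the alternatives, called 1409 genes. Some belong to lists of which limma and edgeR called 0, such as Marco, Plac8 and Retnlg. Members, companion lists and tests were chosen with earlier results of these data known. Named are the members, Ptprc, up to 3 genes of smallest p per list and the 3 genes of closest profile to Cx3cr1, Treml4 and Itgal, leaving out predicted genes. Itgb2, Cd53, Nr4a2 and Nr4a3 were added after their values were seen. Of the 6 erythroid genes, Ahsp was not matched.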

Additional observations from a re-analysis of the deposited data

How the results depend on the processing

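Under the alternatives run, the members kept the sign of their log2 change, except Nr4a1, at 0.69 relative to Ptprc, 0.23 relative to the mean of 7 pan-leukocyte genes and 0.17 without KO replicate 3. Of 160 recomputed changes, 150 moved by less than 1 SD between libraries, and the other 10 were those relative to Ptprc. The 150 include settings that cannot move a log2 change: no low-count filter, a counts-per-million filter and a replicate block. The 160 leave out changes relative to the mean of 7 pan-leukocyte genes. Apart from Nr4a1, those ran from -1.27 for Cd300e to -0.81 for Cx3cr1. The number of members called was 5 as reported, 3 with no low-count filter, 3 by edgeR, 1 with all transcripts of a gene summed, 9 by DESeq2 and 0 relative to Ptprc. Over all genes 381 were called (326 higher and 55 lower in KO), against 1409 by DESeq2 (959 and 450), 240 with summed transcripts and 8358 relative to Ptprc (8349 and 9). With no low-count filter 293 of 23394 genes were called, and edgeR called 282 of 15619. The members' median was -1.47, against -0.48 relative to Ptprc and -0.95 relative to the mean of 7 pan-leukocyte genes, chosen after seeing the data. Leaving out 1 library gave 0 (without KO replicate 3) to 9 (without KO replicate 1) members called and 8 to 810 genes (the same libraries). The number of genes was 136 without KO replicate 2, and 170, 289 and 173 without WT replicates 1, 2 and 3. The members' median then ran from -1.76 to -1.20, and relative to Ptprc from -0.57 to -0.36. Of 832 recomputed changes of 52 companion and marker genes, 739 kept their side of the threshold, 41 lost a call and 50 gained one. The other 2 changed sign and gained or lost a call relative to Ptprc, Fcgr4 at 0.17 and Ms4a1 at 0.83. In all, 22 of the 25 such genes below 0, leaving out Ptprc, were above 0 relative to Ptprc, and 11 changes of sign came on leaving out 1 library. The causes were not tested.

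The groups share replicate numbers, but same-numbered libraries did not deviate together (correlations of -0.01, 0.09 and -0.14 over genes), so the numbers are not taken as pairs. A replicate block gave 539 genes and 8 members called. Not every library correlated best with its own number.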
